A study of Mus musculus with 768 samples.

Results

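A set of 8 genes tied to the sensing of oxygen was followed across single fibroblasts of mouse mammary tumors. It held the 3 alpha subunits of the hypoxia-inducible factors (*Epas1*, *Hif1a* and *Hif3a*), 3 nuclear-encoded mitochondrial genes (*Ndufa4l2*, *Cox4i2* and *Higd1b*) and 2 olfactory receptor genes (*Olfr78* and *Olfr558*), together 8 of the 24490 endogenous genes in the tables. The genes were selected on their measured co-expression in cells rich in *Rgs5*, a regulator of G protein signaling that marks mural cells of vessels. Their difference between Rgs5-high and other wells is therefore given as a description without a test. All cells came from MMTV-PyMT mice (strain FVB/N-Tg(MMTVPyVT)634Mul/J, 14 weeks old), in which a mammary promoter drives the polyoma middle T oncogene. Cells of 2 tumors were sorted as EpCAM-, CD45-, CD31- and NG2-, 1 cell to a well and 1 plate to a tumor, so that tumor and plate cannot be told apart. Whether the 2 tumors came from different mice is not given in the sources used here. The samples used here held no group without a tumor, and the NG2- gate was meant to remove pericytes, the mural cells of small vessels.

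Of 768 wells, 727 had at least 10000 non-ERCC reads and were used, 373 from tumor 1 and 354 from tumor 2. ERCC are synthetic RNAs added to each well in the same amount. The used wells held 10281 to 1190516 endogenous reads (median 207477). A histogram threshold on the *Rgs5* level (7.45 as log2(RPKM + 1), where RPKM is the read count scaled to gene length and to mapped reads) divided the wells into 507 Rgs5-high wells (268 and 239 by tumor) and 220 other wells (105 and 115). Rgs5-high wells held fewer reads (medians 203068 and 191893) than other wells (262024 and 214139) and a larger share of ERCC reads (medians 14.3% and 12.3% against 6.73% and 6.48%). Clustering without the 8 genes gave a vCAF-like cluster of 539 wells (vascular cancer-associated fibroblasts, with 506 of the Rgs5-high wells), an mCAF-like cluster of 143 (matrix, none Rgs5-high), a dCAF-like cluster of 39 (developmental, 1 Rgs5-high) and 6 shallow wells led by hemoglobin genes that stay unnamed. Cells are compared by class and tumor below, since wells of 1 tumor are not replicates and p-values rest on the 2 tumors.

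Oxygen is read by cells on different time scales. The HIF alpha subunits are hydroxylated and destroyed while oxygen is present, and when it falls they pair with ARNT and switch on genes for glycolysis, vessels and red cell production. Specialized cells such as the glomus cells of the carotid body and pulmonary artery smooth muscle respond within seconds instead. In glomus cells this fast response is known to depend on *Epas1* and on COX4I2, the second isoform of cytochrome c oxidase subunit 4. NDUFA4L2 is a relative of the complex IV subunit NDUFA4. HIGD1B belongs to the HIG1 family of the respiratory chain, in which HIGD1C is the member tied to the glomus cell response. The receptor OLFR78 is expressed in the same cells and in vascular smooth muscle.

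In the GENCODE vM21 annotation of GRCm38 *Epas1* spans 17:86753700-86833410, *Hif1a* 12:73901375-73947530, *Ndufa4l2* 10:127514967-127517154, *Cox4i2* 2:152754173-152765037 and *Higd1b* 11:102835849-102838040, all on the plus strand, and *Hif3a* 7:17031507-17062427 on the minus strand. *Olfr558* (7:102702215-102712064, plus) and *Olfr78* (7:102738511-102759471, minus) are neighbors that read in opposite directions with 26446 bases between them. Each mitochondrial member has a more widely used paralog, and the reads must be told apart for the comparisons that follow. The coding sequences of *Ndufa4l2* and *Ndufa4* are shown because this pair changed places between the wells, and those of *Higd1b* and *Higd1a* because their levels are compared as well. Capitals mark the bases that differ, or have no partner, in a global alignment of each pair.
Ndufa4l2: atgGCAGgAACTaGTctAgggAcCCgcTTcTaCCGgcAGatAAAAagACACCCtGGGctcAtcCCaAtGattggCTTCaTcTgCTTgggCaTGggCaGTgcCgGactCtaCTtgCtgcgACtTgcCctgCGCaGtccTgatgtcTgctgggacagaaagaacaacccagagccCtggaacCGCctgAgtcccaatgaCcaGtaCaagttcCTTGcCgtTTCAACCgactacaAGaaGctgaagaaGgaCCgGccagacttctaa
Ndufa4: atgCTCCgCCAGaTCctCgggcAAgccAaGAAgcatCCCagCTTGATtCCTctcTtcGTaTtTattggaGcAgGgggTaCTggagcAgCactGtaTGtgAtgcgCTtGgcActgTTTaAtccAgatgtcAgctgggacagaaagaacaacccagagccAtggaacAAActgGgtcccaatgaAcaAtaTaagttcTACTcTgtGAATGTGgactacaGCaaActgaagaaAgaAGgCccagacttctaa
Higd1b: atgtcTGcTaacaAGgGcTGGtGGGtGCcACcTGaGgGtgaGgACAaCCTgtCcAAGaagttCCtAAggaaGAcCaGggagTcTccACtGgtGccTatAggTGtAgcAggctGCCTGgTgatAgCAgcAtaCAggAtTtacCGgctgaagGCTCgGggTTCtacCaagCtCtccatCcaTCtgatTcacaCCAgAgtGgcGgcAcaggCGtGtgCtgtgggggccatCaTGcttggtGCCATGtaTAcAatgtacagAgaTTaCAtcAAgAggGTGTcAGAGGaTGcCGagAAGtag
Higd1a: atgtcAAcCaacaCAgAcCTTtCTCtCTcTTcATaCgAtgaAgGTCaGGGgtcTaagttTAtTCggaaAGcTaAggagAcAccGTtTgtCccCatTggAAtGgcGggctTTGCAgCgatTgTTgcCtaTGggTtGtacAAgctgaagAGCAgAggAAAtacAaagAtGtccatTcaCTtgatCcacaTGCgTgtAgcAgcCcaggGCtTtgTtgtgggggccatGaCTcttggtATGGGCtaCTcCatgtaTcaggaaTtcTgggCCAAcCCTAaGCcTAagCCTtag

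*Ndufa4l2* and *Ndufa4* were identical at 66.7% of 249 aligned coding bases, with a longest shared run of 28 bases, shorter than the reads of 43 bases. *Higd1b* and *Higd1a* shared 58.5% of 287 bases and no run above 12. *Cox4i2* and *Cox4i1* shared 65.7% of 504, with no run above 14, and *Olfr558* and *Olfr78* 66.2% of 941, with no run above 23. Smart-seq2 does not mark strand, so stretches of 43 bases in the annotated transcripts were compared on both strands. None of *Ndufa4l2*, *Cox4i2* or *Higd1b* occurred in another gene. The share was 0.0148% for *Hif3a*, 0.0915% for *Epas1*, 1.97% for *Olfr558*, 6.1% for *Hif1a* and 14.7% for *Olfr78*, and among the paralogs it was 25.6% for *Higd1a* and 8.27% for *Cox4i1*. On the opposite strand, exons of *Olfr558* overlap those of *Gm45688* and exons of *Hif1a* those of *Gm15283*. The exons of *Ndufa4l2* overlap those of *Shmt2* on the opposite strand by 32 bases. *Shmt2* was read in 51.5% and 52.3% of the Rgs5-high wells and in 54.3% and 56.5% of the other wells of tumors 1 and 2. Summed, *Shmt2* had 94.5 and 74.6 RPM (reads scaled to the total of the summed library) in the Rgs5-high and 45.8 and 67.2 in the other libraries. Its log2 difference was 0.39, and it ran from -0.035 to 0.82 with 1 tumor left out, where that of *Ndufa4l2* ran from 3.25 to 3.62. The part of *Shmt2* reads in the counts of *Ndufa4l2* was not tested.

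*Epas1*, which encodes HIF-2alpha, was the HIF subunit with the higher level in Rgs5-high wells. In these wells its level ran from 2.16 RPKM over a median of 203 to 669 in tumor 1, and from 0 over 208 to 975 in tumor 2. In the other wells it ran from 0 over 2.93 to 224 in tumor 1 and from 0 over 2.19 to 177 in tumor 2. Single wells of the classes overlapped, and the medians lay far apart in both tumors. On the log2(RPKM + 1) scale the mean over tumors was 7.33 ± 0.17 (SD, n = 2) in Rgs5-high and 2.42 ± 0.03 in other wells. Summed over wells, *Epas1* took 1434 and 1377 RPM in the Rgs5-high and 98.1 and 99.6 in the other libraries, a fitted log2 difference of 3.63 (SE 0.17). It was read in 268 of 268 and 236 of 239 Rgs5-high wells, and in 72.4% and 70.4% of the other wells.

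*Hif1a*, the HIF subunit found in most tissues, was read in most wells of both classes. Its median was 38.6 and 41.3 RPKM in Rgs5-high wells of tumors 1 and 2, and 23.4 and 11.9 in other wells, with maxima of 258, 319, 183 and 269. It was read in 76.1% and 85.4% of Rgs5-high wells and in 76.2% and 70.4% of the others. The summed libraries held 276 and 306 against 199 and 181 RPM and did not overlap. The summed difference was 0.42 on the log2 scale (SE 0.16), and -0.06 with the ERCC total as library size. Under that scaling the median log2 difference of all genes was -0.45, in place of 0.03. The log2 difference of each other member that could be fitted kept its sign with the ERCC total, from 2.96 for *Ndufa4l2* to 8.84 for *Olfr558*. Per length, *Epas1* lay above *Hif1a* in 91.8% and 84.9% of Rgs5-high wells, but in 27.6% and 31.3% of other wells. The order of the pair in the mean RPKM was 226 to 50.6 and 226 to 57.1 in Rgs5-high wells, and 16.5 to 35.5 and 16.8 to 31.3 in other wells.

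*Hif3a*, the alpha subunit with splice forms that restrain the other subunits, was close to absent. It was read in 2 of 727 wells, both Rgs5-high wells of tumor 1, with 57 reads in all and at most 19.4 RPKM. None of 239 Rgs5-high wells of tumor 2 had a read, which allows a share of up to 1.26%. In the other wells 0 of 105 and 0 of 115 allow up to 2.86% and 2.61%. These limits cover counting error in the number of wells with a read. The gene did not reach the mean of 1 RPKM needed to enter the fits.

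*Ndufa4l2* was read in 97.0% (exact 95% interval 94.2 to 98.7) and 95.8% (92.4 to 98.0) of Rgs5-high wells. Its median there was 266 and 270 RPKM, with the highest wells at 893 and 945. In other wells it was read in 32.4% and 30.4%, the median was 0 and the highest wells reached 521 and 907. The summed libraries held 313 and 312 against 21.9 and 28.8 RPM, a log2 difference of 3.43 (SE 0.19). The highest of the other wells in either tumor belonged to the vCAF-like cluster, and that of tumor 2 was just under the *Rgs5* threshold.

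*Cox4i2* was read in 87.7% (83.1 to 91.4) and 86.2% (81.2 to 90.3) of Rgs5-high wells, with medians of 227 and 224 RPKM and maxima of 2005 and 1540. Of the other wells 20 of 105 and 18 of 115 held a read, with a median of 1 read where read, and the maxima were 17.6 and 138 RPKM. The summed libraries held 260 and 253 RPM against 1.07 and 3.44, a log2 difference of 6.65 (SE 0.55).

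*Higd1b* had the highest level per length of the 8 genes. Its median in Rgs5-high wells was 1096 and 1301 RPKM, its maxima were 5705 and 5188, and 97.4% and 98.3% of these wells held a read. In other wells 24.8% and 27.8% held a read, but only 3 and 2 wells held 5 or more, and the maxima were 437 and 241 RPKM. The summed log2 difference was 7.71 (SE 0.43), from 957 and 1123 against 5.72 and 2.91 RPM. The size of these differences moved with where the classes were divided. With at least 1000 RPKM of *Rgs5* as the threshold the log2 difference of *Higd1b* was 4.90, and between the vCAF-like and the other clustered wells it was 9.75. For *Cox4i2* it was then 5.46 and 7.505, for *Ndufa4l2* 2.86 and 4.59 and for *Epas1* 2.83 and 3.78. With 1 tumor left out it ran from 7.16 to 8.405 for *Higd1b* and from 6.01 to 7.70 for *Cox4i2*.

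Among the olfactory receptors, *Olfr558* and *Olfr78* stood out from their family. The tables list 1118 genes with an Olfr symbol, and 59 had any read in the 727 wells. *Olfr558* took 62236 reads and *Olfr78* 14224, together 98.7% of the 77502 reads of the family. The other 57 genes shared 1042 reads, and 43 of them were seen in 1 well. Next in rank were *Olfr561* with 524 reads in 17 wells, all Rgs5-high, and *Olfr920* with 110 reads in 8 wells. *Olfr559* had 97 reads in 9 wells, all Rgs5-high. *Olfr560*, whose exons overlap those of *Olfr78* on the same strand, was read in 1 Rgs5-high well of either tumor, with 1 and 2 reads.

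*Olfr558* was read in 77.6% (72.1 to 82.5) and 70.3% (64.1 to 76.0) of Rgs5-high wells, with medians of 116 and 118 RPKM and maxima of 1252 and 948. In other wells 20 of 105 and 15 of 115 held a read, none held 5, and no well passed 4.98 RPKM. *Olfr78* was restricted to a smaller set of wells. It was read in 23.1% (18.2 to 28.7) and 22.2% (17.1 to 28.0) of Rgs5-high wells, with a median of 0 and maxima of 953 and 836 RPKM. Where it was read, it had a median of 82 and 84 reads. In other wells 8 of 105 and 5 of 115 had a read, none had 5, and the highest was 3.43 RPKM. The summed log2 difference was 9.32 for *Olfr558* and 8.74 for *Olfr78*, and 6.515 and 8.56 with at least 1000 RPKM of *Rgs5* as the threshold.

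With 5 reads required, 51 of the 52 *Olfr78* wells of tumor 1 and 39 of the 43 of tumor 2 also held *Olfr558* among the Rgs5-high wells. *Olfr558* without *Olfr78* was found in 130 and 115, and neither in 86 and 81. Wells with *Olfr78* were thus for the most part a subset of the wells with *Olfr558*.

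**Figure D1:**
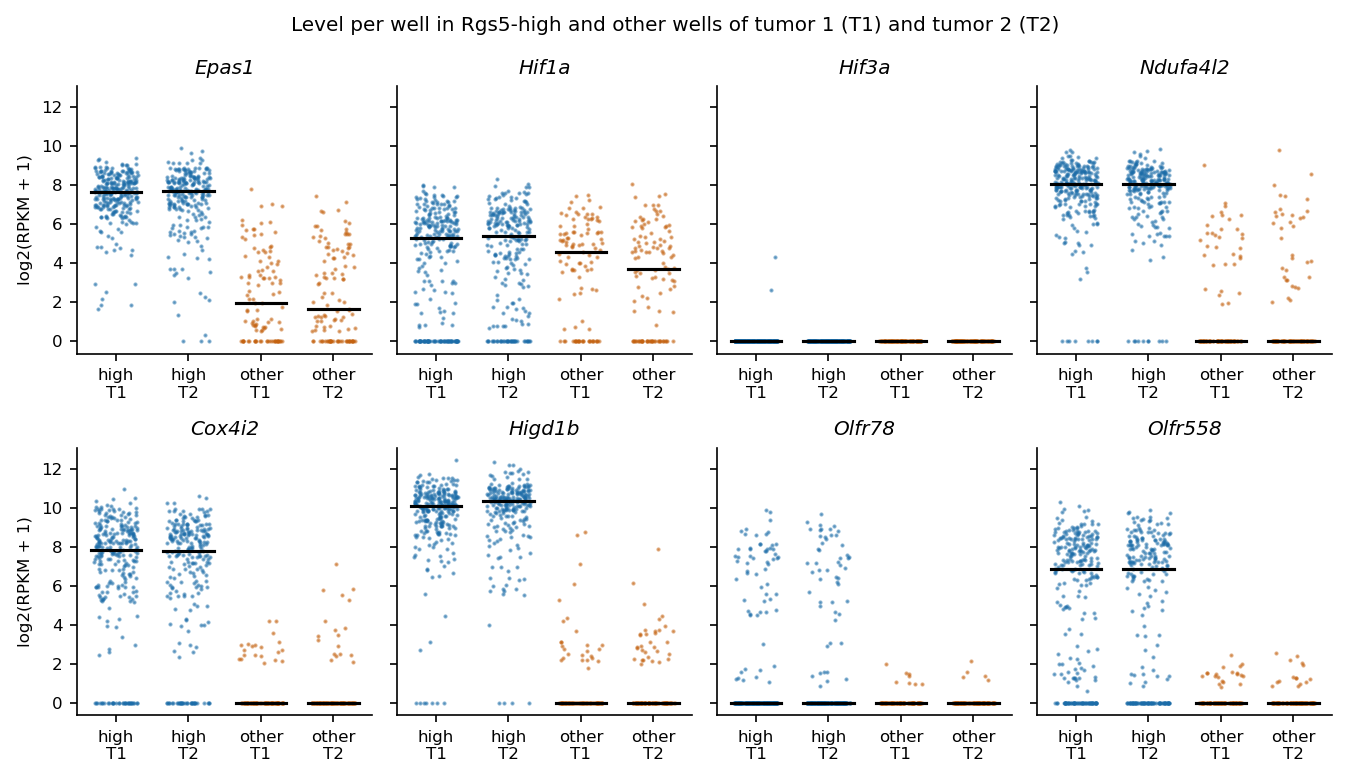
Level of each gene as log2(RPKM + 1) in every used well, by *Rgs5* class and tumor (1 point per well, 727 in all, black bars the medians). *Epas1*, *Ndufa4l2*, *Cox4i2*, *Higd1b* and *Olfr558* have high medians only in the Rgs5-high columns, *Hif1a* is spread over all 4 columns, *Olfr78* is high in a minority of Rgs5-high wells and *Hif3a* is at 0 in all but 2 wells.

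The 4 genes *Epas1*, *Ndufa4l2*, *Cox4i2* and *Higd1b* were selected on their co-expression in these cells, so their joint presence is given as a description. Whether it exceeded what the share of each gene alone would give was not tested. All 4 had a read in 230 of 268 (85.8%, 81.1 to 89.8) and 196 of 239 (82.0%, 76.5 to 86.7) Rgs5-high wells, 3 of them in 29 and 36 further wells, and no Rgs5-high well lacked all 4. In the other wells the set was complete in 2 of 105 (1.90%) and 3 of 115 (2.61%), and none of the 4 was read in 17 and 16. After thinning each well to 50000 endogenous reads the complete set remained in 82.7% and 79.2% of Rgs5-high wells and in 0 of 94 and 1 of 100 other wells. With at least 5 reads of each gene it was 77.2% and 71.1% against 0 in either tumor. Adding *Olfr558* left 190 and 152 Rgs5-high wells, and adding *Olfr78* as well left 50 and 38.

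The *Rgs5* threshold fell in a sparse range, with 12 wells within 1 log2 unit. The lowest Rgs5-high well had 190 RPKM of *Rgs5* and the highest other well 172. In the 8 wells just inside, the median was 89.9 RPKM for *Epas1*, 42.6 for *Ndufa4l2*, 0 for *Cox4i2* and 64.6 for *Higd1b*. In the 4 wells just outside it was 50.0, 128, 2.33 and 36.7. *Olfr78* was not read in any of the 12, and *Olfr558* in 1 well on either side, at 1.39 and 4.98 RPKM.

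Presence outside the Rgs5-high class differed from gene to gene. *Rgs5* itself was read in 93.5% and 84.8% of the mCAF-like wells, with a median of 3 reads where read and 294 and 194 reads in all. The origin of the reads outside the class was not tested. Per 100 reads of *Rgs5*, *Higd1b* had 7.93 and 10.3 in Rgs5-high and 6.12 and 8.76 in mCAF-like wells. *Olfr558* had 5.25 and 5.11 against 7.48 and 4.64, and *Olfr78* 1.15 and 1.23 against 2.04 and 2.06, the latter from 6 and 4 reads. *Cox4i2* had 2.15 and 2.33 against 5.10 and 15.5 from 15 and 30 reads, and 2 of 66 mCAF-like wells of tumor 2 held 5 or more.

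*Epas1* and *Ndufa4l2* had more reads relative to *Rgs5* in mCAF-like than in Rgs5-high wells of both tumors. *Epas1* had 11.9 and 12.7 reads per 100 of *Rgs5* in Rgs5-high wells but 585 and 598 in mCAF-like wells, where 48.1% and 37.9% of wells held 5 or more reads. The mCAF-like maxima were 123 and 100 RPKM. *Ndufa4l2* had 2.59 and 2.87 against 87.8 and 128, and 22.1% and 21.2% of mCAF-like wells held at least 5 reads, at up to 124 and 158 RPKM. In dCAF-like wells outside the Rgs5-high class *Ndufa4l2* gave only 2 and 10 reads in all, whereas *Epas1* gave 183 and 943. *Hif1a* was read in 85.7% and 78.8% of mCAF-like and in 70.0% and 82.8% of dCAF-like wells.

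The vCAF-like cluster held 33 wells below the *Rgs5* threshold, 17 and 16 by tumor. Many were shallow, and 9 and 10 of them reached 50000 reads. *Ndufa4l2* was read in 52.9% and 56.3% of them, *Higd1b* in 52.9% and 43.8% and *Cox4i2* in 23.5% and 25.0%, with wide intervals at 17 and 16 wells. After thinning to 50000 reads, *Ndufa4l2* was read in 6 of 9 and 6 of 10, *Higd1b* in 5 and 3 and *Cox4i2* in 0 and 3. In mCAF-like wells it was then 16 of 75 and 14 of 66 for *Ndufa4l2*, 4 and 6 for *Higd1b* and 5 and 3 for *Cox4i2*. *Hif1a* was read in 41.2% and 37.5% of the 33 wells, and after thinning in 3 of 9 and 5 of 10, below its shares in the Rgs5-high and the mCAF-like wells of both tumors. No well held 5 reads of *Olfr558* or *Olfr78*. All 4 genes were read in 2 and 2 of these wells. In the 6 wells led by hemoglobin genes *Higd1b* was read in 3 and *Epas1* in 1, and the other members were not read.

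**Figure D2:**
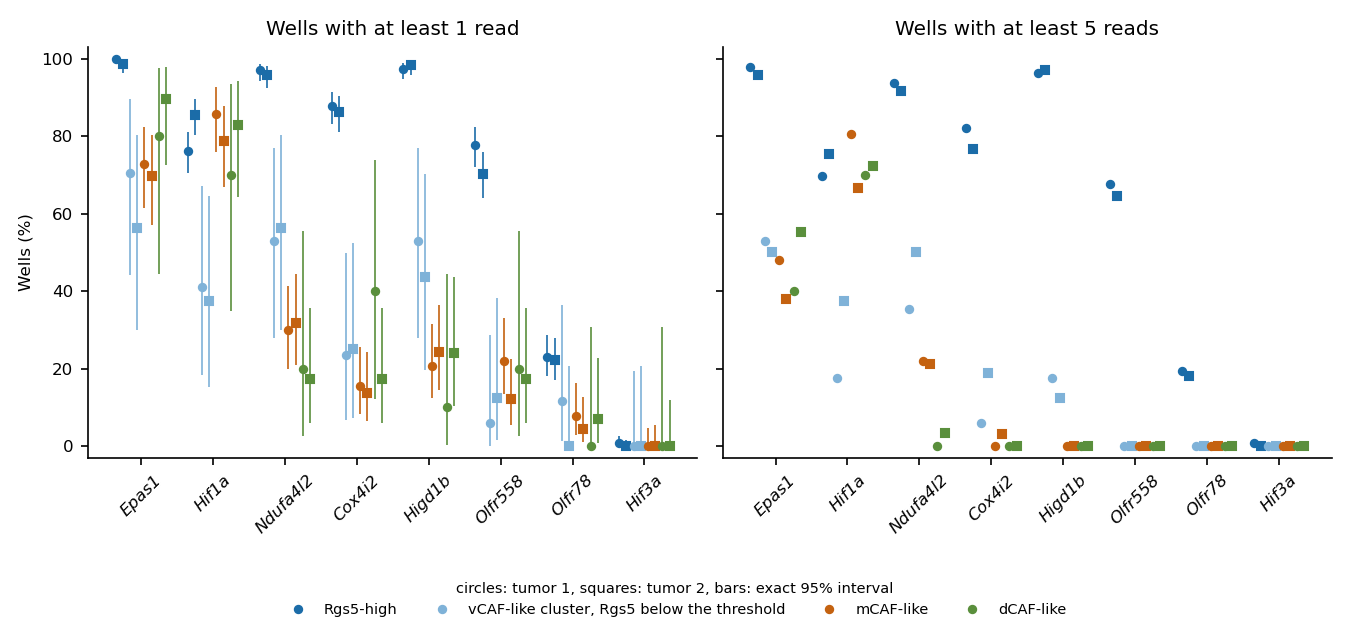
Share of wells (%) with at least 1 read (left) and at least 5 reads (right) of each gene, for Rgs5-high wells, vCAF-like wells under the *Rgs5* threshold, mCAF-like and dCAF-like wells, by tumor (bars on the left, exact 95% binomial intervals for counting error). Requiring 5 reads removes *Olfr558* and *Olfr78* from every population but the Rgs5-high wells and leaves *Epas1*, *Hif1a* and *Ndufa4l2* in part of the mCAF-like wells.

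The paralog pairs behaved in 3 ways. *Ndufa4*, the ubiquitous subunit that NDUFA4L2 resembles, went the opposite way to *Ndufa4l2*. It was read in 54 of 268 and 57 of 239 Rgs5-high wells against 94 of 105 and 92 of 115 other wells, with median levels of 0 and 0 against 259 and 246 RPKM. The summed libraries held 14.5 and 16.8 against 167 and 188 RPM and did not overlap. *Ndufa4* was listed, as a paralog, with earlier results of these data known, and the wells were divided on *Rgs5*. Its log2 difference of -3.69 (SE 0.18) passed edgeR's quasi-likelihood test (Benjamini-Hochberg adjusted p = 0.000463, n = 2 tumors). Of the summed mean RPKM of both genes, *Ndufa4l2* made up 92.1% and 88.4% in Rgs5-high, 3.83% and 4.65% in mCAF-like and 0.114% and 0.441% in dCAF-like wells. Both genes were read in only 51 and 52 Rgs5-high wells.

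*Cox4i2*, in contrast, came on top of *Cox4i1*, the common isoform. *Cox4i1* was read in 266 of 268 and 235 of 239 Rgs5-high wells, and 233 and 204 of these wells held both isoforms. Its summed level was 567 and 584 RPM in Rgs5-high and 345 and 386 in other libraries, a log2 difference of 0.46 (SE 0.15) that missed the threshold (edgeR adjusted p = 0.110) but not in DESeq2 (adjusted p = 0.0172). With ERCC totals the difference was -0.02. *Cox4i2* made up 32.7% and 30.8% of the pair's mean RPKM in Rgs5-high wells against 0.312% and 0.787% in other wells. The paralogs of *Higd1b* did not pass. *Higd1a* had a mean of 11.3 and 10.7 RPKM in Rgs5-high and 8.32 and 20.4 in other wells, and its libraries overlapped (log2 difference -0.54, SE 0.46, edgeR adjusted p = 0.512). The libraries of *Higd2a* overlapped as well, at 61.0 and 61.9 against 69.9 and 60.0 RPM (adjusted p = 0.409).

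**Figure D3:**
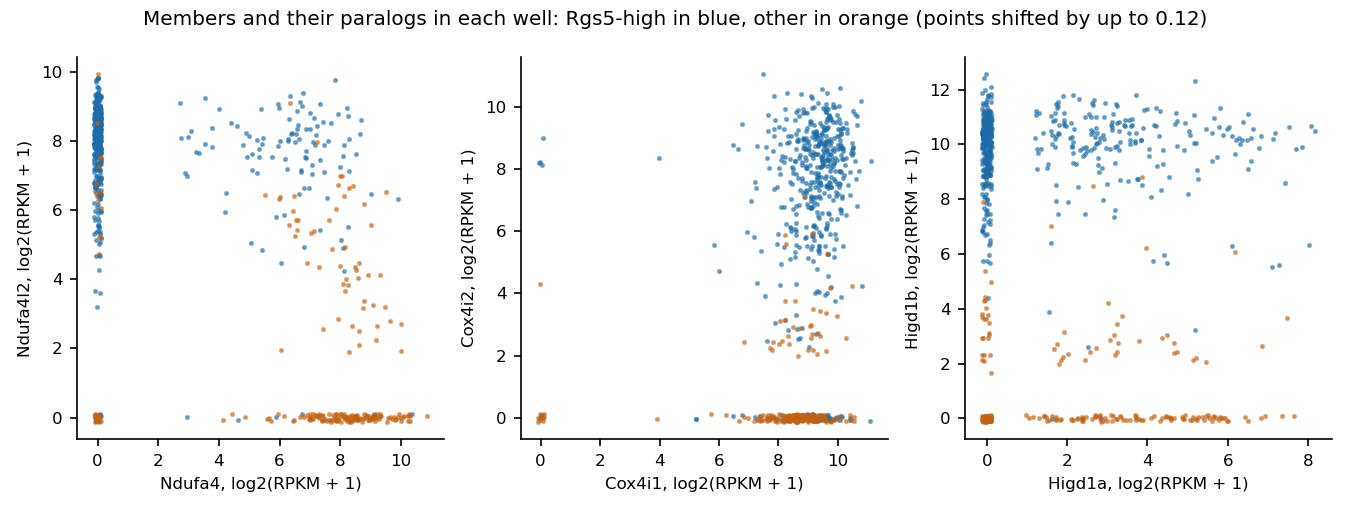
*Ndufa4l2* against *Ndufa4*, *Cox4i2* against *Cox4i1* and *Higd1b* against *Higd1a* in each well, both axes as log2(RPKM + 1), Rgs5-high wells in blue and other wells in orange. Most wells of the first pair lie along opposite axes in the 2 classes, with points slightly shifted so that they can be told apart, while Rgs5-high wells hold both *Cox4i1* and *Cox4i2*.

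Without a block for tumor, other genes of the oxygen pathway were called at shares near those of all genes. Of 89 further genes in 5 lists, 74 reached the level needed for the fit of Rgs5-high against other wells. In edgeR's quasi-likelihood test on counts summed by tumor (adjusted p of 0.05), 6 (8.11%) were higher and 9 (12.2%) lower in Rgs5-high wells. Over all 11715 genes tested, 6.56% were higher and 9.65% lower. With tumor as a replicate block, since both classes come from the same tumors, the counts were 10 higher and 15 lower of the 74. Both were larger shares than the 8.02% and 11.5% of all genes. With ERCC totals as library size the counts were 5 higher and 16 lower, against 4.61% and 20.3% of all genes. At an adjusted p of 0.001 there was 1 pathway gene (*Ndufa4*), against 1.37% of all genes. Of the 15 called genes, 10 reached a mean of 1 RPKM in both classes. The other 5 entered the fit through the class where they were higher, *Adora2a* and *Kcnk3* through Rgs5-high and *Kcnk1*, *Car12* and *Cited4* through other wells, and had to differ to be tested, so that their values are given without a p. Of the 67 genes that reached the mean in both classes, 4 (5.97%) were higher and 6 (8.96%) lower. The shares of all genes were not limited in this way, so they are no like comparison for the 67. The median log2 difference of the 74 genes was -0.02, against 0.03 for all genes.

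Among genes of glomus cell sensing, a list chosen with earlier results of these data known, *Gucy1b3* and *Hmox2* were higher in Rgs5-high wells. Of 15 genes listed 9 were tested, 4 higher and 1 lower, against 6.56% and 9.65% of all genes. Of these 5 genes, 3 were among the genes that entered through 1 class. *Adora2a*, an adenosine receptor, had 12.5 and 17.7 RPM in Rgs5-high and 0 and 0.369 in other libraries, the latter from 0 and 9 reads. *Kcnk3*, the acid- and oxygen-sensitive potassium channel TASK-1, had 20.3 and 22.5 against 1.56 and 0.205 RPM. *Gucy1b3*, the beta subunit of soluble guanylate cyclase, had 594 and 609 against 49.6 and 31.7 (log2 difference 3.69, SE 0.28, edgeR adjusted p = 0.00131). *Hmox2*, the constitutive heme oxygenase, had 87.3 and 87.7 against 29.8 and 29.8 (1.36, SE 0.19, edgeR adjusted p = 0.00775). *Kcnk1*, another potassium channel of the same family, had 0.107 and 0.604 against 34.9 and 39.5 RPM.

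Among genes that HIF is known to induce, most did not pass the test. Some held few reads, such as *Eno1* with 1.07 and 0.708 RPM in Rgs5-high and 0.914 and 1.27 in other libraries. *Gapdh*, at 0.731 and 0.937 against 0.762 and 1.27 RPM, was too low to be tested. Of 36 tested, 1 was higher and 6 lower, against 6.56% and 9.65% of all genes. Their median log2 difference was -0.22, against 0.03 for all genes. With the block the counts were 3 higher and 10 lower, against 8.02% and 11.5% of all genes. In DESeq2 they were 2 and 8, against 10.8% and 14.6%. *Pfkp*, a phosphofructokinase of glycolysis, rose by a log2 difference of 1.35 (SE 0.15), from 70.7 and 69.4 to 202 and 208 RPM. *Aldoc*, an aldolase, was lower by a log2 difference of -6.57 (SE 0.70), at 1.59 and 5.31 against 355 and 210 RPM. *Car12*, a carbonic anhydrase at the cell surface, differed by -5.87 (SE 0.69) and *Angptl4*, an inhibitor of lipoprotein lipase, by -3.42 (SE 0.29). *P4ha2*, a collagen prolyl hydroxylase, differed by -1.46 (SE 0.32), *Hmox1*, the inducible heme oxygenase, by -1.16 (SE 0.24), and *Bhlhe40*, a repressor of the clock family, by -0.94 (SE 0.16). The adjusted p of the 5 genes other than *Car12* by edgeR ran from 0.00165 (*Angptl4*) to 0.0342 (*P4ha2*), and that of *Pfkp* was 0.00375. The call of *P4ha2* was lost without the cycling wells (edgeR adjusted p = 0.0509), and that of *Hmox1* with each well scaled to the same total (0.0531). *Aldoc* was also among the 10 genes that led the dCAF-like cluster.

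Of 12 tested partners and regulators of HIF, none was higher and 1 lower without the block, against 6.56% and 9.65% of all genes. This was *Cited4*, which binds the coactivators of HIF, with 0.143 and 1.19 against 9.79 and 18.9 RPM, 1 of the genes that entered through 1 class. Of the 12, 3 had an unadjusted p under 0.05, against 29.7% of all genes, and DESeq2 called 1 higher and 1 lower, against 10.8% and 14.6%. With the block 1 was higher (*Cited2*) and 2 lower (*Cited4* and *Egln3*), against 8.02% and 11.5%. *Cited2* had 99.7 and 96.0 against 23.2 and 45.8 RPM, a log2 difference of 1.32 (SE 0.33). Its edgeR adjusted p was 0.0541 without and 0.0293 with the block. Of 15 tested subunits of complex IV, *Cox8a* was higher (275 and 267 against 147 and 145 RPM, log2 difference 0.69, SE 0.15, edgeR adjusted p = 0.0311), *Ndufa4* was lower and 13 did not pass, with a median of 0.22. All genes stood at 6.56% higher and 9.65% lower. With the block 2 subunits were higher and 2 lower, against 8.02% and 11.5% of all genes. DESeq2 called 3 and 2, against 10.8% and 14.6%. With ERCC totals, which moved the median of all genes to -0.45, *Cox8a* was at 0.22 (edgeR adjusted p = 0.334). With each well scaled to the same total *Cox8a* was at 0.66 (edgeR adjusted p = 0.0541). Neither of the 2 tested genes of the HIG1 family passed, at an unadjusted p of 0.05 or in DESeq2, and *Higd1c* had 0 reads in all 4 libraries.

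**Figure D4:**
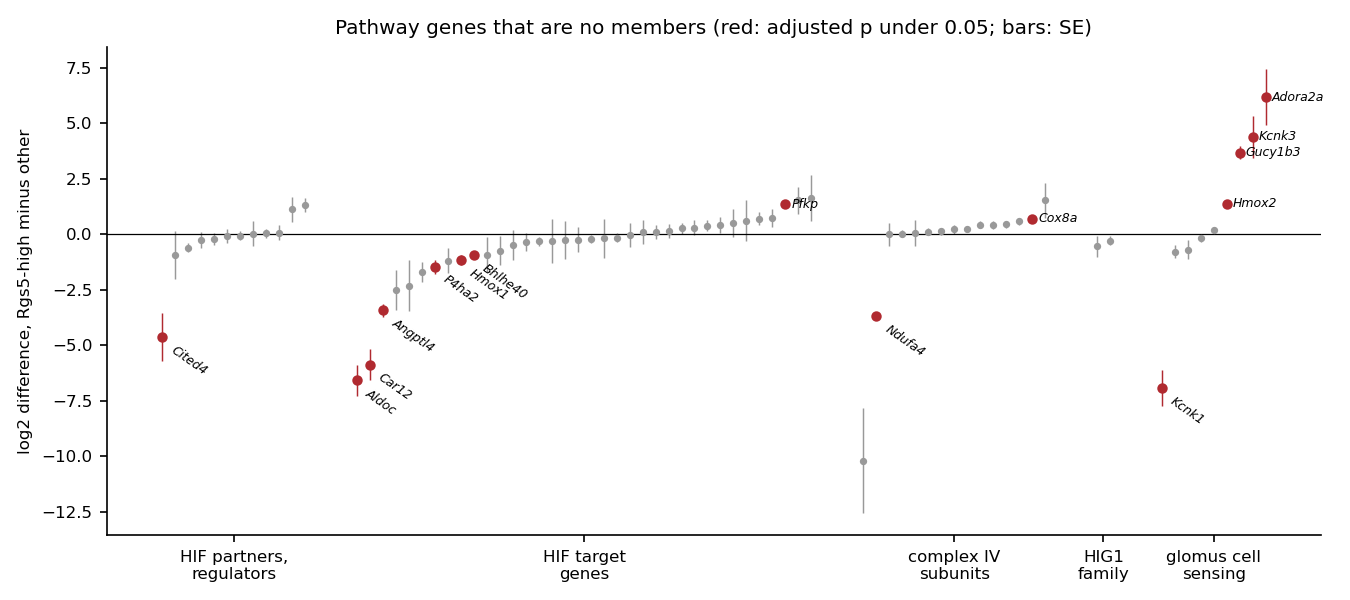
Log2 difference between Rgs5-high and other wells (points, with SE) for the 74 tested pathway genes outside the selection, ordered by value within each list, with named red points for an adjusted p under 0.05 in edgeR. Of the named points 6 lie above 0 and 9 below, and 5 of the 15 (*Adora2a*, *Kcnk3*, *Kcnk1*, *Car12* and *Cited4*) reached the level filter only in the class where they were higher. The lowest grey point is *Cox8b*, not read in Rgs5-high wells, which also reached the filter only in the class where it was higher and is given without a p.

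Other cell types that carry *Epas1* or the sensing genes were looked for by their markers. Of 10 endothelial markers, 3 were tested, 2 of them higher and 1 lower in Rgs5-high wells, against 6.56% and 9.65% of all genes. With the block 1 was higher and 1 lower, against 8.02% and 11.5% of all genes. *Esam*, which mural cells also express, was the highest at a mean of 319 and 323 RPKM in Rgs5-high wells, and *Pecam1* and *Cdh5* were at 0 reads in these wells in both tumors. The part of these cell types in the members' levels was not tested. The summed level of the endothelial list was 720 and 725 RPM in Rgs5-high and 47.6 and 52.3 in other libraries. Of 8 glomus and neural markers, *Th*, the rate-limiting enzyme of catecholamine synthesis and a defining marker of glomus cells, was at 0 in all 4 libraries. The sum of the 8 was 20.8 and 15.8 in Rgs5-high against 104 and 90.0 RPM in other libraries. In other wells *S100b* was the only 1 of the 8 to reach a mean of 10 RPKM, at 42.8 and 48.1. *Chga* was at 0 in these wells. The highest of the list in Rgs5-high wells was *Syp*, at 5.38 and 2.51 RPKM. Immune markers summed to 2.44 and 9.20 against 22.9 and 14.7, and epithelial markers to 5.88 and 37.3 against 240 and 63.6 RPM.

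Within the Rgs5-high wells the members varied with one another to different degrees. Spearman correlations over the 268 and 239 wells are given as a description, since wells share a plate, a depth and the division by the total. *Ndufa4l2* and *Cox4i2* were closest (0.55 and 0.48), followed by *Cox4i2* and *Higd1b* (0.33 and 0.51) and *Epas1* and *Olfr558* (0.36 and 0.44). *Epas1* and *Cox4i2* gave 0.29 and 0.04, *Epas1* and *Higd1b* 0.08 and 0.13. *Hif1a* stayed between -0.05 and 0.17 with each other member. *Olfr78* followed *Olfr558* (0.37 and 0.29) but not *Cox4i2* (0.05 and -0.09) or *Higd1b* (0.01 and -0.12). With the number of reads in the well, the members gave -0.05 to 0.17.

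The genes most alike to each member were ranked by the mean Spearman correlation of the 2 tumors. Over all wells *Rgs5* ranked first for *Ndufa4l2* (0.75), *Higd1b* (0.76) and *Olfr558* (0.69), and *Ndufa4l2* for *Cox4i2* (0.74). *Cox4i2* in turn ranked second for *Ndufa4l2* (0.74) and at rank 3 for *Higd1b* (0.71), after the channel subunit *Abcc9* (0.75), and *Cox4i2* was followed by *Rgs5* (0.74) and *Ptp4a3* (0.72). *Epas1* was most like *Atp1b2* (0.73), a sodium pump subunit, then *Rgs5* (0.72) and *Notch3* (0.70), and it ranked second for *Olfr558* (0.62), before *Ptp4a3* (0.61). *Hif1a* had no close partner, with *Pfn1* (0.30), *Cfl1* (0.28) and *Tpm4* (0.26), genes of the actin skeleton.

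Within Rgs5-high wells *Epas1* stood with *Atp1b2* (0.41), *Olfr558* (0.40) and *Ptp4a3* (0.39), and *Ndufa4l2* with *Cox4i2* (0.51), *Rgs5* (0.46) and *Ptp4a3* (0.43). *Cox4i2* stood with *Ndufa4l2* (0.51), *Ptp4a3* (0.51) and the chloride cotransporter *Slc12a2* (0.46), and *Higd1b* with *Cox4i2* (0.42), *Rgs5* (0.39) and *Abcc9* (0.38). *Hif1a* was at 0.23 with *Tpm4* and 0.22 with *Dlk1* and *Pfn1*. The receptors had smooth muscle genes among theirs. *Olfr78* was most like *Myh11* (0.45 over all and 0.49 within Rgs5-high wells), the smooth muscle myosin heavy chain, and *Mylk* (0.40 and 0.45), its kinase, with *Map3k7cl* (0.38) and *Crip1* (0.45) in turn at rank 3. *Olfr558* within Rgs5-high wells was most like *Rgs5* (0.51), *Myh11* (0.45) and *Crip1* (0.42).

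Whether the members moved with the cell cycle was tested in Rgs5-high wells, since the selection had not used it. Wells with at least 4 of 8 mitotic genes counted as cycling, 23 in either tumor, against 245 and 216 not cycling. None of the 7 members tested passed (edgeR, adjusted p of 0.05), against 1.37% of 11688 genes higher and 0.077% lower in cycling wells. At an unadjusted p of 0.05 there was 1, *Cox4i2*, against 15% of all genes, and DESeq2 called 0, against 8.11%. *Cox4i2* had 204 and 172 RPM in cycling and 267 and 263 in other Rgs5-high wells (log2 difference -0.46, SE 0.18, edgeR adjusted p = 0.332). *Ndufa4l2* had 245 and 254 against 322 and 319 (-0.33, SE 0.16), and the libraries of neither gene overlapped. *Epas1* stood at 0.13 (SE 0.14), *Hif1a* at 0.30 (SE 0.19), *Higd1b* at -0.09 (SE 0.21), *Olfr558* at -0.39 (SE 0.26) and *Olfr78* at 0.03 (SE 0.57). *Olfr78* went opposite ways, with 61.5 against 149 RPM in tumor 1 and 209 against 124 in tumor 2. With the ERCC total as library size (median log2 difference over all genes 0.72) *Epas1* (0.87) and *Hif1a* (1.05) were called higher, as were 12.8% of all genes.

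Whether they moved with the contractile program was tested by dividing the Rgs5-high wells of each tumor at the median of *Acta2*, smooth muscle actin. Without a block 0.00856% of 11688 genes, which is 1 gene (*Actg2*, a smooth muscle actin as well), were higher in Acta2-high wells and 0% lower. None of the 7 members passed. At an unadjusted p of 0.05 there were 2, against 8.81% of all genes, and DESeq2 called 1, against 2.7%. With tumor as a block 81 genes (0.693%) were higher and 33 (0.282%) lower, and *Olfr78* was among the former.

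*Olfr78* had 209 and 221 RPM in Acta2-high and 51.5 and 26.7 in Acta2-low libraries, which did not overlap. Its log2 difference was 2.499 (SE 0.33, a fold of 5.65), with an adjusted p of 0.0908 by edgeR without the block and 0.0155 with it. The share of wells with a read increased over the tertiles of *Acta2* from 8.89% over 21.6% to 38.9% in tumor 1 and from 10.0% over 12.7% to 43.8% in tumor 2. Acta2-high wells were somewhat deeper (medians 223100 and 207200 against 185500 and 172500 reads). After thinning the shares ran from 6.02% to 36.7% and from 5.33% to 43.04% between the lower and the upper tertile.

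*Olfr558* had 702 and 672 against 549 and 412 RPM (log2 difference 0.56, SE 0.18), with an adjusted p of 0.469 by edgeR without and 0.135 with the block. The libraries did not overlap, and the difference missed the threshold either way. The other members stayed within 0.30 on the log2 scale, *Epas1* at 0.20 (SE 0.16), *Hif1a* at 0.29 (SE 0.19), *Ndufa4l2* at 0.14 (SE 0.15), *Cox4i2* at -0.19 (SE 0.16) and *Higd1b* at -0.0014 (SE 0.16). Smooth muscle markers moved with the split that *Acta2* defined. Their sum was 10910 and 8821 RPM in Acta2-high and 1403 and 619 in Acta2-low wells, *Acta2* included, and *Cnn1* was at 0 in the Acta2-low wells of tumor 2. The 8 tested had 1 call without and 6 with the block, all higher, against 0.00856% and 0.693% of all genes. *Acta2* was 1 of the 6, a call fixed by the split. The part of the smooth muscle markers in the result for *Olfr78* was not tested.

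**Figure D5:**
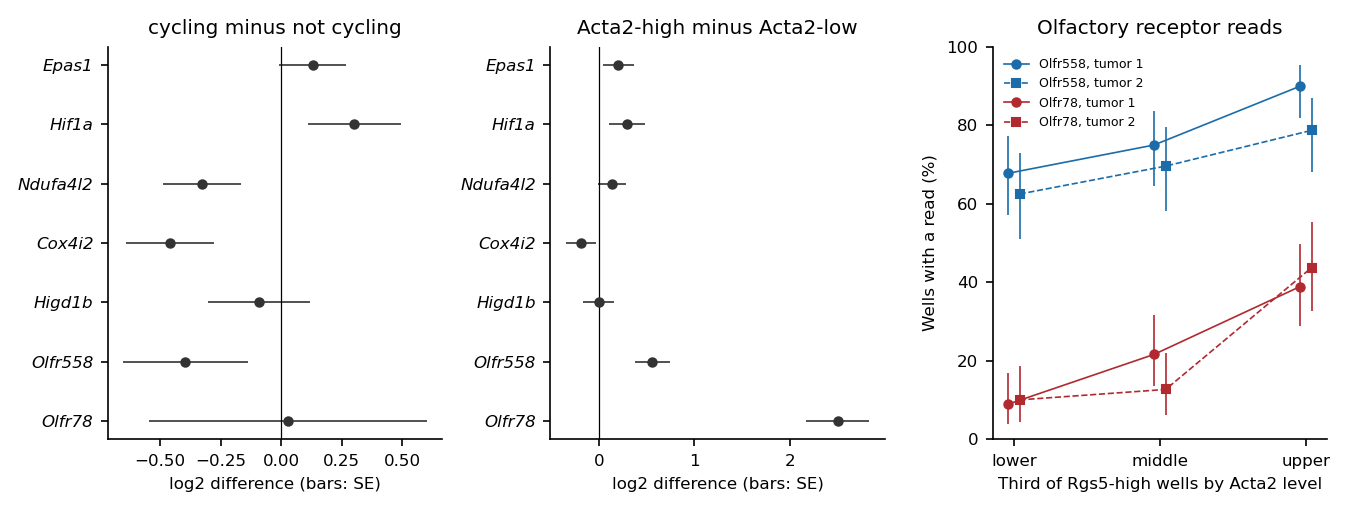
Log2 differences (points, with SE) of 7 members between cycling and other Rgs5-high wells (left) and between Acta2-high and Acta2-low Rgs5-high wells (middle), and the share of Rgs5-high wells with a read of *Olfr558* and *Olfr78* by tertile of the *Acta2* level (right, exact 95% intervals). *Olfr78* is the member farthest from 0 in the *Acta2* contrast, at 2.499, and its share rises to 38.9% and 43.8% in the upper tertile.

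Promoter windows of 300 bases around the annotated start (RefSeq, GRCm38.p6) were at hand for 3 of the 8 genes, *Hif1a*, *Hif3a* and *Olfr558*. They were searched on both strands for the core letters of the hypoxia response element, ACGTG and GCGTG, which share their last 4 letters and were counted at each start. *Hif1a* held 3 cores and *Hif3a* 2, and *Olfr558* none, while 43.8% of all 32851 windows held at least 1. A match describes the letters alone.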

How the data were processed

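Smart-seq2 libraries of 768 single cells, 1 per well, were sequenced as single-end reads of 43 bases. Per the study's methods, the authors aligned the reads to mm10 with STAR and deposited raw read counts per RefSeq gene (24490 genes and 92 ERCC spike-ins) without normalization. The authors also deposited RPKM values made with rpkmforgenes. Depth sets the precision of a share of wells with a read, and intervals (exact Clopper-Pearson, 95%) and limits at 0 (3 counts) cover counting error only.

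Wells with at least 10000 endogenous reads were kept (41 left out), and wells were put in tumor 1 or 2 by the plate in their title. Rgs5-high wells lay above the Otsu threshold of log2(RPKM + 1), with a pseudocount of 1. Populations came from Rtsne 0.17 (perplexity 27) and DBSCAN (eps 2.5, minimum 5 points) on the most variable genes without the 8 members, and were named from marker lists. Doublets were not called, as each well was sorted as 1 cell.

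For tests, counts were summed per tumor and class (4 libraries a comparison, 2 tumors) and fitted in edgeR 4.0.16 (TMM, quasi-likelihood, Benjamini-Hochberg adjusted p of 0.05) over genes with a mean of at least 1 RPKM. Alternatives were a replicate block for tumor, DESeq2 1.42.0, ERCC totals as library size, other filters, thresholds and sets of wells, and each tumor alone. Both classes of a pair come from the same tumor, which gives the pairing. The correlation of their deviations from the class means was 0.15 for *Rgs5*, 0.11 for cycling and 0.18 for *Acta2*. The members and lists were chosen with earlier results of these data known. Named genes were the members, their paralogs, up to 6 called genes per list and direction, and the 3 most correlated genes of each member read in at least 5% of wells.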

Additional observations from a re-analysis of the deposited data

How the results depend on the processing

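With tumor as a replicate block the count of pathway genes called between Rgs5-high and other wells was 25 in place of 15 (2289 in place of 1898 of all 11715 genes). At an adjusted p of 0.001, without the block, it was 1 (160 of all genes). Members called between cycling and other Rgs5-high wells were 2 in place of 0 with ERCC totals, where 1523 in place of 169 of all 11688 genes were called. Members called between Acta2-high and Acta2-low wells were 1 in place of 0, each time *Olfr78*, with the block, DESeq2, ERCC totals, no filter beyond 1 read, and the upper against the lower tertile of *Acta2*. Over all genes these settings called 114, 315, 110, 118 and 48, in place of 1. The adjusted p of *Olfr78* ran from 2.69e-11 (DESeq2) to 0.331 (wells of at least 50000 reads). Wells with all 4 of *Epas1*, *Ndufa4l2*, *Cox4i2* and *Higd1b* were, as the unweighted mean of the 2 tumors' shares, 83.91% of Rgs5-high wells, 80.95% after thinning, 74.18% with 5 reads required, and 82.01% to 85.82% with 1 tumor. In other wells they were 2.257%, 0.5% after thinning, 0% with 5 reads, 7.556% with at least 1000 RPKM of *Rgs5* as the threshold, and 1.905% to 2.609% with 1 tumor. Values that turned in sign did so as follows, on the log2 scale, and the cause was not tested. With ERCC totals, which moved the median of all genes to -0.45 (*Rgs5*), 0.72 (cycling) and 0.52 (*Acta2*), *Cox4i1* was at -0.01695 for *Rgs5*. In cycling wells *Ndufa4l2* was then at 0.4165, *Cox4i2* at 0.2801, *Higd1b* at 0.6514 and *Olfr558* at 0.3596, and in Acta2-high wells *Cox4i2* at 0.3381 and *Higd1b* at 0.5402. With each well scaled to the same total *Epas1* in cycling wells was at -0.06392 and *Olfr78* at -0.7899. *Olfr78* in cycling wells was at -0.2157 with the block, -0.01584 without the filter and -0.03492 with 2 of 8 cycling genes required. *Higd1b* in Acta2-high wells was at 0.007565 with the block and 0.005269 over wells of at least 50000 reads. With 1 tumor left out, *Higd1a* for *Rgs5* ran from -1.132 to 0.3291. In cycling wells *Higd1b* ran from -0.2661 to 0.02823, *Olfr78* from -1.259 to 0.7949 and *Olfr558* from -0.8775 to 0.01926. In Acta2-high wells *Epas1* ran from -0.01877 to 0.442, *Hif1a* from -0.02208 to 0.5934 and *Higd1b* from -0.1115 to 0.1267. A single tumor leaves no replicate, so counts of calls were not made there. Of 288 values for 18 pathway genes and paralogs 262 kept direction and side of the threshold, as did 98 of 112 for the members in cycling wells and 100 of 112 in Acta2-high wells. Leaving out the 6 wells led by hemoglobin genes, an alternative chosen after seeing the data, changed no count by over 1.5 times. The block changed no other count of members.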

Other observations

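Of 73 pathway genes tested between Acta2-high and Acta2-low Rgs5-high wells, none passed in edgeR (adjusted p of 0.05), 6 had an unadjusted p under 0.05 (8.81% of all genes did) and DESeq2 called 2 (2.7% of all genes). *Kcnk3*, the TASK-1 potassium channel, is named here after its values were seen. It had 30.5 and 38.2 RPM in Acta2-high and 7.70 and 3.33 in Acta2-low libraries, which did not overlap (log2 difference 2.67, SE 0.51). Its adjusted p was 0.213 in edgeR, 0.0882 in edgeR with the block and 0.000107 in DESeq2.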
